A study of Mus musculus with 69 samples.

Results

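The subject is what still changed between day 4 and day 8 in mouse embryoid bodies differentiated under GSK343, a small-molecule inhibitor of the histone methyltransferase EZH2. Its members are 4 of the 69 samples of the series, the 2 GSK343 day 8 libraries and the 2 GSK343 day 4 libraries, chosen by their labels and compared gene by gene. The cells were CJ7, a mouse embryonic stem (ES) cell line, grown with LIF and serum on feeder fibroblasts (PMEF), and embryoid bodies, which are aggregates of differentiating cells, were made from them in hanging drops. Cells had GSK343 in the medium at 4 µM for the 3 days ahead of differentiation and then until collection. The DMSO day 8 and day 4 libraries, 2 of each, came from cells given an equal volume of the vehicle over the same time, and GSK343 and DMSO ES cells (day 0), 2 libraries each, stand at the start of the 2 courses. EZH2 mutant embryoid bodies without the inhibitor, 3 libraries at day 8 and 3 at day 4, were sequenced as a separate experiment, and the labels give neither the allele nor the number of clones. Nothing in the labels says whether replicates came from separate cultures, so the p-values measure only the spread between these libraries, which may be technical.

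EZH2 is the main catalytic subunit of Polycomb repressive complex 2 (PRC2), which methylates lysine 27 of histone H3 and keeps developmental genes silent in cells that do not use them. Embryoid bodies lose the ES cell programme and form cells of the early germ layers, among them beating cardiac muscle, blood and endothelium. As the aggregates grow, cells inside them can also meet low oxygen, to which mammalian cells respond through HIF transcription factors that switch on genes of glycolysis, oxygen sensing and blood vessel growth.

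Expression is given in RPKM, reads scaled to gene length and library size, per the deposited table. Each of the 4 GSK343 libraries of day 8 and day 4 held 17.4 to 22.0 M (mega) reads assigned to genes, so 1 read on a gene of 1 kilobase was worth 0.0455 to 0.0576 RPKM. The shallowest of the 12 libraries fitted together was 1 of GSK343 ES cells, with 5.01 M reads. The labelled stage was checked against markers. The summed RPKM of 5 ES cell markers (Pou5f1, Nanog, Sox2, Zfp42, Esrrb) was 743 and 1009.6 at day 8 and 920 and 1067 at day 4 under GSK343, against 96.2 and 90.2 at day 8 and 733 and 820.2 at day 4 under DMSO. By this sum, ES cell markers at GSK343 day 8 were near the level of DMSO day 4, but single markers differed. Zfp42 had 113 and 237 RPKM at GSK343 day 8 against 47.9 and 37.9 at DMSO day 4. Esrrb had 22.5 and 38.6 against 6.46 and 3.87. Sox2 and Nanog were also above, while Pou5f1 was below, with 421 and 465 against 524 and 646. The 3 markers of blood (Hbb-bh1, Hbb-y, Gata1) summed to 0.337 and 0.545 RPKM at GSK343 day 8, against 161 and 545 at DMSO day 8. In bulk RNA, fewer cells of a type and less RNA per cell cannot be told apart.

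The 2 GSK343 day 8 libraries stood apart from each other, and each result below rests on both unless stated. Across the 14016 genes tested, log2 expression in library 1 of day 8 correlated more closely with library 1 of GSK343 day 4 (Pearson r = 0.988, across genes) than with its own replicate (r = 0.971), and it reached r = 0.980 with library 1 of DMSO day 4. The DMSO day 8 libraries correlated at r = 0.988 with each other. A gap of more than 1 on the log2 scale between replicates was seen for 601 genes at GSK343 day 8 and 134 at GSK343 day 4, against 134 at DMSO day 8 and 36 at DMSO day 4. Relative to the day 4 mean, 169 genes were higher by more than 1 in library 1 of GSK343 day 8 and 704 were in library 2.

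Few genes passed the test in the GSK343 step. With limma on log2(RPKM + 1) and Benjamini-Hochberg adjustment over all genes at 0.05, 91 genes (0.649%) were higher and 8 (0.0571%) lower at day 8 than at day 4, together 0.706% of those tested. The same fit called 3262 genes higher and 2536 lower over these days under DMSO (23.3% and 18.1%, together 41.4%). The steps also differed by their own test, the interaction of treatment and day, for 1709 genes (12.2%): the GSK343 step lay above the DMSO step for 796 (5.68%) and below it for 913 (6.51%). The median change of all genes was 0.06 under GSK343 and 0.05 under DMSO on the log2 scale. Fold changes are on the log2(RPKM + 1) scale, which understates the change of low genes.

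The number called depended on single libraries, on scaling and on a replicate block. Without library 1 of GSK343 day 8, 1181 genes were higher and 429 lower, while without library 2 of day 8 there were 39 and 0. Leaving out library 1 of GSK343 day 4 gave 6 and 0, and leaving out library 2 gave 1 and 0. Median-of-ratios scaling on top of RPKM gave 39 and 7, with a median change of all genes of -0.01. With the replicate number as a block, to which the labels give no meaning, 623 genes were higher and 117 lower. With the 4 libraries fitted alone, limma gave 0 calls. An unadjusted p under 0.05 was reached by 1418 genes in that fit and by 2627 where all 12 libraries shared the estimate of spread. For all 91 rises and all 8 falls the day 8 and day 4 libraries did not overlap, so fits on fewer libraries could not change a sign. The sign of the change was the same in all of these fits for all 99 genes called, and 1 of them, Egln3, kept its call whichever of the 4 libraries was left out.

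**Figure D1:**
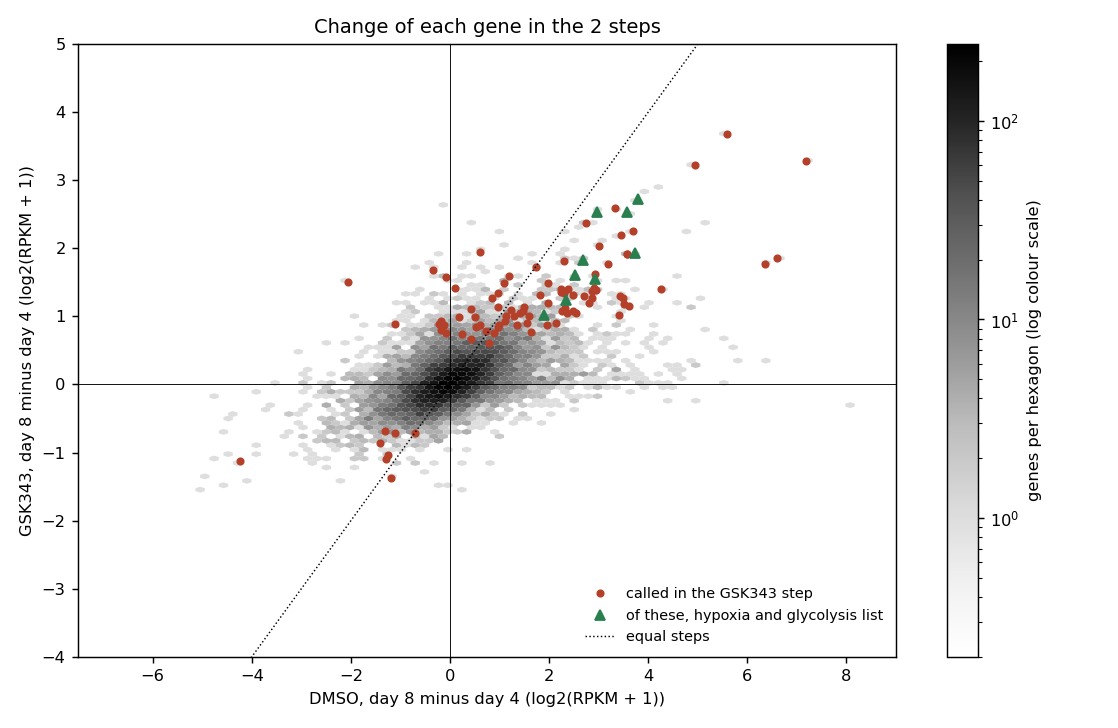
Change from day 4 to day 8 of each of the 14016 genes tested, under DMSO on the horizontal axis and under GSK343 on the vertical axis, in log2(RPKM + 1), with the number of genes per hexagon in grey. Coloured marks are the 99 genes called in the GSK343 step (limma, adjusted p under 0.05), and the 9 triangles among them, all of the hypoxia and glycolysis list, lie to the right of zero and below the dotted line of equal steps.

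Most genes that rose under GSK343 also rose under DMSO. The fold change was smaller for most of the GSK343 rises, but fewer passed the test of that difference. Of the 91 genes, 76 were also called higher in the DMSO step, which is 83.5% of the GSK343 rises and 2.33% of the DMSO rises. All 8 genes that fell under GSK343 also fell under DMSO, and these make up 0.315% of the DMSO falls. For 67 of the 91 the fold change was smaller than under DMSO, and the difference between the steps passed its test for 36 in that direction and for 11 in the other, with the GSK343 libraries entering both comparisons. Among the 3262 genes higher in the DMSO step, the median log2 change was 0.29 under GSK343 and 0.89 under DMSO. Among the 2536 lower ones it was -0.19 under GSK343 and -0.81 under DMSO. Both sets were chosen by their DMSO step, so a larger median change under DMSO is in part built in.

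Genes of the response to low oxygen and of glycolysis formed the largest group among the lists examined. The lists were written with earlier results of these data known, so this ranking is not independent of the data. Of 24 members tested, 9 rose and 0 fell in the GSK343 step, against 0.649% of all genes higher, and the median log2 change of the 24 was 1.02, against 0.06 over all genes. Both day 8 libraries were above both day 4 libraries for 22 of the 24, against 4065 of 14016 genes (29%). The 9 were Egln3, Ndrg1, P4ha1, Bnip3, Ero1l, Egln1, Adm, Slc2a3 and Pgk1. Under DMSO, 21 of the 24 rose (23.3% of all genes), with a median of 1.84. The GSK343 step lay below the DMSO step by its own test for 7 of the 24 (6.51% of all genes). The count of 9 fell to 0 with the 4 libraries alone and ranged from 1, without library 2 of day 4, to 16, without library 1 of day 8. It was 3 without library 1 of day 4.

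Egln3 encodes an oxygen-dependent prolyl hydroxylase that marks HIF subunits for breakdown and is itself a HIF target. It measured 30.2 and 37.3 RPKM at day 8 and 5.27 and 4.66 at day 4 under GSK343, against 40.6 and 38.2 at day 8 and 4.15 and 4.19 at day 4 under DMSO. The day 8 and day 4 libraries were far apart under both treatments, and the day 8 levels of the 2 treatments nearly met. Its log2 change of 2.54 ± 0.17 (SE, limma adjusted p = 0.000386) had the smallest adjusted p of all genes in the GSK343 step. It was 2.97 under DMSO, and the difference of -0.43 ± 0.24 did not pass (adjusted p = 0.286). Egln1, the more widely expressed enzyme of the same family, rose less, with 28.2 and 31.5 RPKM at day 8 and 13.3 and 10.8 at day 4 under GSK343. Its change of 1.25 ± 0.15 (limma adjusted p = 0.00918) was below that of 2.35 under DMSO (difference -1.10, adjusted p = 0.00871).

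Ndrg1, a stress-responsive gene strongly induced by low oxygen, measured 19.7 and 32.1 RPKM at day 8 and 3.96 and 3.16 at day 4 under GSK343, against 57.4 and 50.4 at day 8 and 3.33 and 3.93 at day 4 under DMSO. Levels at day 4 were alike in the 2 treatments, and at day 8 both GSK343 libraries were below both DMSO libraries. The change was 2.53 ± 0.21 under GSK343 (limma adjusted p = 0.00193) and 3.57 under DMSO, a difference of -1.04 ± 0.30 (adjusted p = 0.0487). P4ha1, which encodes the catalytic subunit of collagen prolyl hydroxylase, showed the widest gap between the steps of these 9. It measured 50.2 and 69.9 RPKM at day 8 and 15.3 and 14.2 at day 4 under GSK343, against 140.5 and 120.4 at day 8 and 9.80 and 8.10 at day 4 under DMSO. The difference between its steps was -1.79 ± 0.28 (adjusted p = 0.00318).

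Bnip3, whose product directs damaged mitochondria to autophagy, measured 35.2 and 46.2 RPKM at day 8 and 12.4 and 9.17 at day 4 under GSK343, against 51.7 and 42.0 at day 8 and 7.16 and 5.78 at day 4 under DMSO. The day 8 libraries of the 2 treatments overlapped, and the difference between the steps, -0.85 ± 0.26, missed the threshold (adjusted p = 0.0629). Its change under GSK343 was 1.82 ± 0.19 (limma adjusted p = 0.00413). Slc2a3, which encodes a neuronal-type glucose transporter abundant in ES cells, had 479 and 674 RPKM at day 8 and 193 and 196 at day 4 under GSK343, against 1042 and 929 at day 8 and 130.2 and 126 at day 4 under DMSO. Adm, encoding the vessel-dilating peptide adrenomedullin, had 5.71 and 14.2 RPKM at day 8 and 0.661 and 0.419 at day 4 under GSK343, the largest change of the list at 2.72 ± 0.36 (limma adjusted p = 0.0119). The 15 members that did not pass included most enzymes of glycolysis proper, among them Gapdh with a change of 0.28, Pkm with 0.13 and Ldha with 0.46 on the log2 scale. Vegfa, the principal growth factor of blood vessels, had 22.2 and 38.8 RPKM at day 8 and 17.8 and 20.0 at day 4 under GSK343, and the difference between its steps was -1.19 (adjusted p = 0.0429).

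The levels of these genes did not run one way over the whole course. Egln3 had 28.7 and 21.4 RPKM in GSK343 ES cells, 5.27 and 4.66 at day 4 and 30.2 and 37.3 at day 8. Bnip3 had 37.6 and 36.4 RPKM in GSK343 ES cells, 12.4 and 9.17 at day 4 and 35.2 and 46.2 at day 8. Slc2a3 had 531 and 656 RPKM in GSK343 ES cells, 193 and 196 at day 4 and 479 and 674 at day 8. In these 3 genes the day 4 libraries were the low ones, and under GSK343 each day 8 library was closer to the ES cell libraries than to the day 4 libraries.

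**Figure D2:**
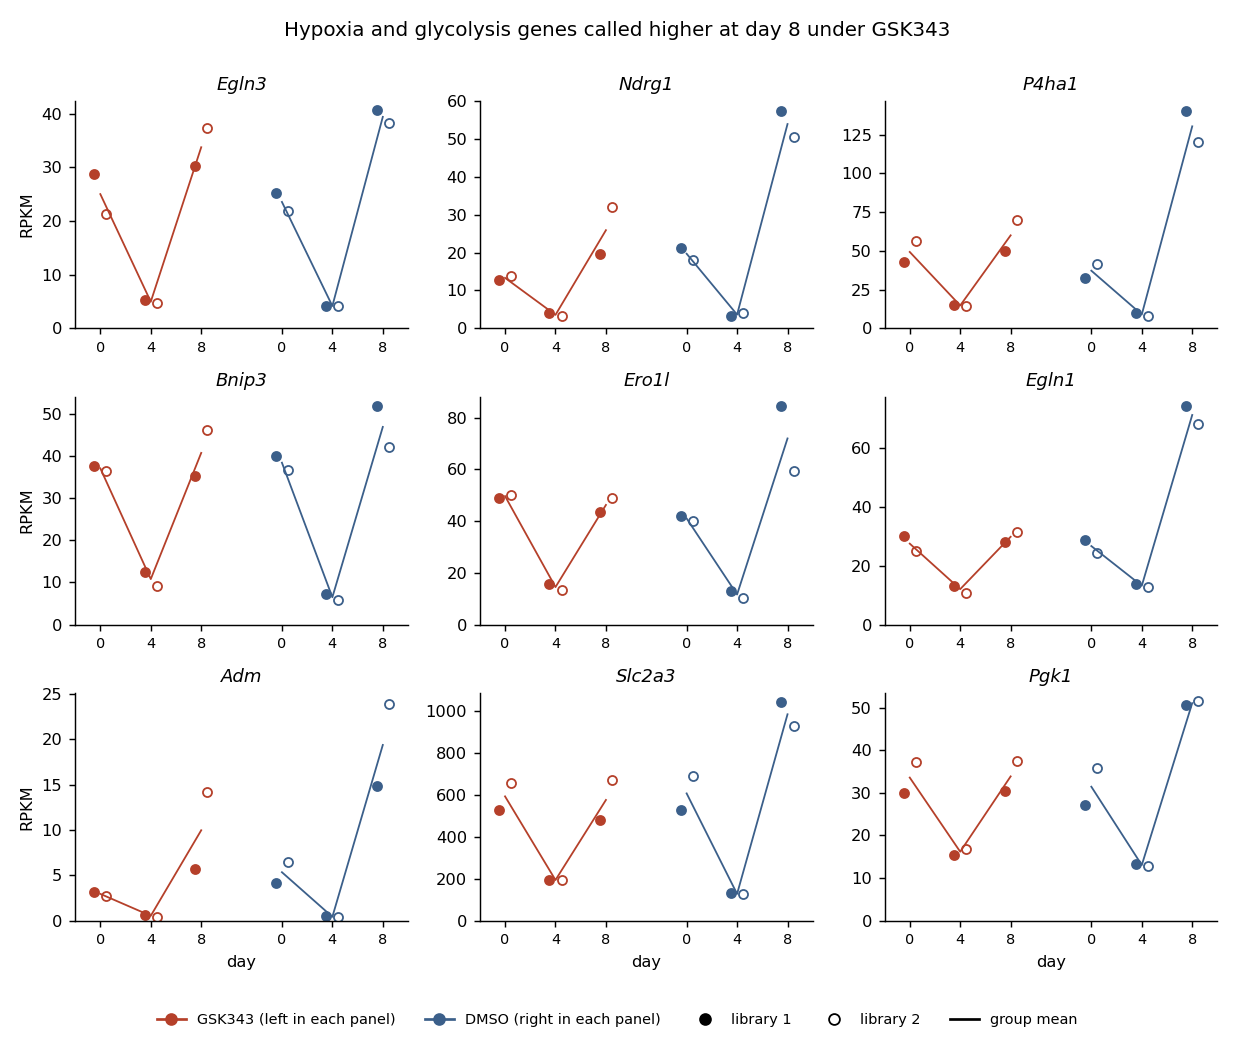
RPKM of the 9 hypoxia and glycolysis genes called higher at day 8 under GSK343, by day (0 is ES cells), with GSK343 on the left and DMSO on the right of each panel, 1 point per library and lines through the group means. Every panel has its lowest GSK343 points at day 4, and at day 8 the GSK343 points of P4ha1, Egln1 and Slc2a3 stay below those of DMSO.

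The promoters of 4 of these genes are shown because HIF binds a short core sequence, ACGTG or GCGTG on either strand, and the letters of that core can be looked for. The sequences are the 250 bases before the first start of each gene in RefSeq on build GRCm38.p6, written 5′ to 3′ on the gene's strand, with each match in capitals. Egln3 lies at chr12:54203875-54204124 (minus strand), P4ha1 at chr10:59323046-59323295 (plus strand), Bnip3 at chr7:138909507-138909756 (minus strand) and Ero1l, listed as Ero1a, at chr14:45318573-45318822 (minus strand).
Egln3: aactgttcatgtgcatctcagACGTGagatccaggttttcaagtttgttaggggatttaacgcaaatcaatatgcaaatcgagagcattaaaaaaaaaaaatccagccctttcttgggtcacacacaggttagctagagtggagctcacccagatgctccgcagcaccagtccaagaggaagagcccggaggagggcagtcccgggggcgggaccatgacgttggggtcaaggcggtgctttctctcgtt
P4ha1: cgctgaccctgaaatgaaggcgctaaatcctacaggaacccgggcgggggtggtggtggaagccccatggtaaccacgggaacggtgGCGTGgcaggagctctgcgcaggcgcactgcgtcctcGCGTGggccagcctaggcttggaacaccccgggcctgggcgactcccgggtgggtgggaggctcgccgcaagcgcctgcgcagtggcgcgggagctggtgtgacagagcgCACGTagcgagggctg
Bnip3: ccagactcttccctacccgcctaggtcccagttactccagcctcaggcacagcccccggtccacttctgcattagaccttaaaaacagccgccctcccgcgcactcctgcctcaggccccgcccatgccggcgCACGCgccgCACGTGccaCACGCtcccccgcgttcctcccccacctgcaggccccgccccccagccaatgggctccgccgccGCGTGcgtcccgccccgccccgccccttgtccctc
Ero1l: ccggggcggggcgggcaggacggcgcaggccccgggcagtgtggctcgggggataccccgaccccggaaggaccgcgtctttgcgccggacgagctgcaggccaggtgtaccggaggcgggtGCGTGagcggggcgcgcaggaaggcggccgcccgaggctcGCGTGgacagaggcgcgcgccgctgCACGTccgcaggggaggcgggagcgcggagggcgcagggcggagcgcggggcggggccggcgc
Egln3 has 1 match in this window, P4ha1 3, Bnip3 5 and Ero1l 3, where the palindromic core of Bnip3 counts once per strand. Of the 9 genes, 7 had an entry and all 7 held the core. Of the 24 members tested, 22 had an entry and 18 (81.8%) held it, beside 56.4% of the 11080 tested genes with an entry and 38.6% of all 27025 promoters of the table. Ndrg1 and Slc2a3 had no entry. A match describes the letters of the window and is not a measured binding site.

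The largest rises under GSK343 outside that list and outside the imprinted genes were those of Anxa2 and Krt19. Anxa2, encoding a calcium-dependent membrane-binding annexin, measured 96.4 and 213 RPKM at day 8 and 12.3 and 8.47 at day 4 under GSK343, against 306 and 388 at day 8 and 6.18 and 6.14 at day 4 under DMSO. Its groups were separate by a wide margin, and its change of 3.68 ± 0.36 (limma adjusted p = 0.00413) was the largest of the step, while the DMSO step was larger still (difference -1.91 ± 0.50, adjusted p = 0.0345). Krt19, a keratin of simple epithelia, had 37.0 and 103 RPKM at day 8 and 6.91 and 4.77 at day 4 under GSK343, a change of 3.22 ± 0.38 (limma adjusted p = 0.00859). It was the only one of the 22 tested genes of epithelial to mesenchymal transition that was called (0.649% of all genes rose). Library 2 of day 8 was well above library 1. Ndufa4l2, a mitochondrial protein known to be induced by HIF, had 18 and 40.1 RPKM at day 8 and 3.64 and 3.58 at day 4 under GSK343. Pfkfb3, whose product speeds up glycolysis through a regulatory sugar phosphate, had 8.22 and 12 RPKM at day 8 and 1.67 and 1.14 at day 4, a change of 2.20 ± 0.23 (limma adjusted p = 0.00413).

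Tinagl1, encoding a matrix glycoprotein, changed by 2.36 ± 0.30, with 9.22 and 7.26 RPKM at day 8 and 1.01 and 0.586 at day 4 under GSK343. It was 1 of the 13 rises that were not higher in library 2 than in library 1 of day 8, since 78 of the 91 were higher in library 2. Pik3ip1, an inhibitor of phosphatidylinositol kinase signalling, had 11.7 and 38.1 RPKM at day 8 and 3.57 and 3.74 at day 4. Ier3, an early-response gene of cellular stress, had 16.1 and 36.1 RPKM at day 8 and 5.65 and 4.68 at day 4. Both passed the threshold under GSK343 (limma adjusted p = 0.045 for Pik3ip1 and 0.0161 for Ier3), and for neither did the difference from the DMSO step pass (adjusted p = 0.145 for Pik3ip1 and 0.15 for Ier3). Flt1, a receptor for VEGF and the only 1 of 17 tested endothelial genes called, had 3.74 and 1.66 RPKM at day 8 and 0.499 and 0.247 at day 4 under GSK343. Nog, a secreted antagonist of BMP, had 1.35 and 2.33 RPKM at day 8 and 0.359 and 0.387 at day 4, and it was the only 1 of 18 tested BMP and Id genes called. The only 1 of 20 tested members of the PRC1 list called was Pcgf5, a subunit of that complex, with 14.0 and 18.1 RPKM at day 8 and 7.13 and 7.01 at day 4 under GSK343. Over all genes, 0.649% were called higher. Under median-of-ratios scaling Pik3ip1, Flt1, Nog and Pcgf5 did not pass, while Tinagl1 and Ier3 did.

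Imprinted genes, expressed from 1 parental copy, held 4 of the rises among 28 tested (0.649% of all genes rose), with 0 falls and a median change of -0.07. H19, a noncoding RNA of the maternal copy, measured 47.0 and 126 RPKM at day 8 and 7.75 and 6.31 at day 4 under GSK343, against 847 and 1359 at day 8 and 7.03 and 5.77 at day 4 under DMSO. Igf2, the fetal growth factor next to it, measured 3.78 and 6.62 RPKM at day 8 and 0.902 and 0.446 at day 4 under GSK343, against 116 and 173 at day 8 and 0.475 and 0.481 at day 4 under DMSO. Both started from a like low level at day 4 in the 2 treatments, and at day 8 no GSK343 library came near a DMSO library. The change of H19 was 3.29 ± 0.38 and that of Igf2 1.86 ± 0.26 under GSK343 (limma adjusted p = 0.00859 and 0.0161), and the differences from the DMSO step were -3.90 for H19 and -4.73 for Igf2 (adjusted p = 0.00153 and 3.96e-05). Peg3, a paternally expressed zinc finger gene, had 13.2 and 18.4 RPKM at day 8 and 5.77 and 4.75 at day 4 under GSK343, and Sgce, encoding a sarcoglycan, had 8.92 and 12.7 at day 8 and 4.6 and 3.63 at day 4. Both also lay below their DMSO step, with differences of -2.84 for Peg3 and -1.61 for Sgce (adjusted p = 0.000105 and 0.00656). Under median-of-ratios scaling the GSK343 rise of Sgce did not pass, while those of H19, Igf2 and Peg3 did. The counting was not stated to use strand, so reads of Igf2 and of its antisense transcript cannot be told apart.

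Of the 91 rises, 82 had a change above 0 under DMSO and 76 were called higher there. The GSK343 step lay above the DMSO step by its own test for 11 of the 15 not called there: Rhox6, Rhox9, Rbm44, Terb2, Wbp2nl, Usp28, Mir18b, Ddx60, Oas1c, Pla2g2c and D730005E14Rik. Rhox6, a homeobox gene of the reproductive cluster on the X chromosome, measured 7.57 and 8.04 RPKM at day 8 and 1.53 and 1.04 at day 4 under GSK343, against 0.845 and 1.38 at day 8 and 0.327 and 0.429 at day 4 under DMSO. Rhox9, of the same cluster, measured 6.80 and 5.62 RPKM at day 8 and 1.24 and 1.57 at day 4 under GSK343, against 0.276 and 0.517 at day 8 and 0.385 and 0.578 at day 4 under DMSO. The GSK343 day 8 libraries were close to each other for both genes and above all other embryoid body libraries of the table. The changes were 1.95 ± 0.24 for Rhox6 and 1.58 ± 0.22 for Rhox9 (limma adjusted p = 0.00918 and 0.0161), and the steps differed by 1.35 for Rhox6 and 1.67 for Rhox9 (adjusted p = 0.027 and 0.00716). Rhox genes are close copies of each other, and reads could have been split between them.

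Rbm44, an RNA-binding protein of germ cells, had 2.87 and 7.37 RPKM at day 8 and 0.747 and 0.786 at day 4 under GSK343, against 0.285 and 0.252 at day 8 and 0.706 and 0.506 at day 4 under DMSO. Terb2, which ties telomeres to the nuclear envelope in meiosis, had 1.79 and 2.94 RPKM at day 8 and 0.791 and 0.679 at day 4 under GSK343. In both genes the GSK343 day 8 libraries were the highest of the embryoid bodies, and the steps differed by 2.03 for Rbm44 and 1.11 for Terb2 (adjusted p = 0.0139 and 0.0104). Usp28, a deubiquitinase, moved in opposite directions, with 73.6 and 88.1 RPKM at day 8 and 42.9 and 43.1 at day 4 under GSK343, against 17 and 15.2 at day 8 and 39.4 and 32.7 at day 4 under DMSO. It rose by 0.89 ± 0.16 under GSK343 (limma adjusted p = 0.039) and fell by 1.11 under DMSO (adjusted p = 0.000369). With median-of-ratios scaling its rise under GSK343 was 0.80 and did not pass. The microRNA locus Mir18b was the other gene with a rise under GSK343 (26.3 and 22.1 RPKM at day 8 and 6.93 and 8.96 at day 4) and a fall under DMSO (3.67 and 5.50 at day 8 and 20.5 and 23.5 at day 4). Reads at this locus may come from the longer host transcript and do not measure the mature microRNA.

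Of the germline list, with 20 members tested, Rhox9 was the only gene called, but 18 of the 20 had both GSK343 day 8 libraries above both day 4 libraries, against 29% of all genes. The median log2 change of the list was 0.75 under GSK343 and -0.17 under DMSO. The GSK343 step lay above the DMSO step by its own test for 7 members, against 5.68% of all genes. The 2 day 8 libraries shared the direction and differed in size, with a median of 0.44 in library 1 and 1.02 in library 2 relative to day 4. Stra8, the gatekeeper of meiotic entry, had 0.155 and 7.52 RPKM at day 8 and 0.118 and 0.0362 at day 4, so library 2 of day 8 alone was high. Dppa3, a marker of germ cells and naive pluripotent cells, had 7.89 and 53.7 RPKM at day 8 and 4.15 and 7.14 at day 4, again high in library 2. Neither passed the threshold (limma adjusted p = 0.255 for Stra8 and 0.193 for Dppa3).

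Library 1 of GSK343 day 8 was the higher one for genes of the primitive streak and endoderm. The streak and mesendoderm list had a median of 0.83 in library 1 and -0.05 in library 2 relative to the day 4 mean, and the endoderm regulators had 0.77 and -0.18. T, the transcription factor that defines nascent mesoderm, measured 9.09 and 0.395 RPKM at day 8 and 0.506 and 0.130 at day 4 under GSK343, against 37.1 and 10.8 at day 8 and 0.858 and 1.04 at day 4 under DMSO. Sox17, a regulator of endoderm, measured 4.55 and 0.382 RPKM at day 8 and 0.689 and 0.441 at day 4 under GSK343. Col4a1, a collagen of basement membranes made in quantity by endoderm of this stage, had 202 and 29.6 RPKM at day 8 and 40.0 and 29.8 at day 4. In all 3 genes library 2 of day 8 remained in or near the range of day 4, and none passed the threshold (limma adjusted p = 0.398 for T, 0.425 for Sox17 and 0.421 for Col4a1).

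**Figure D3:**
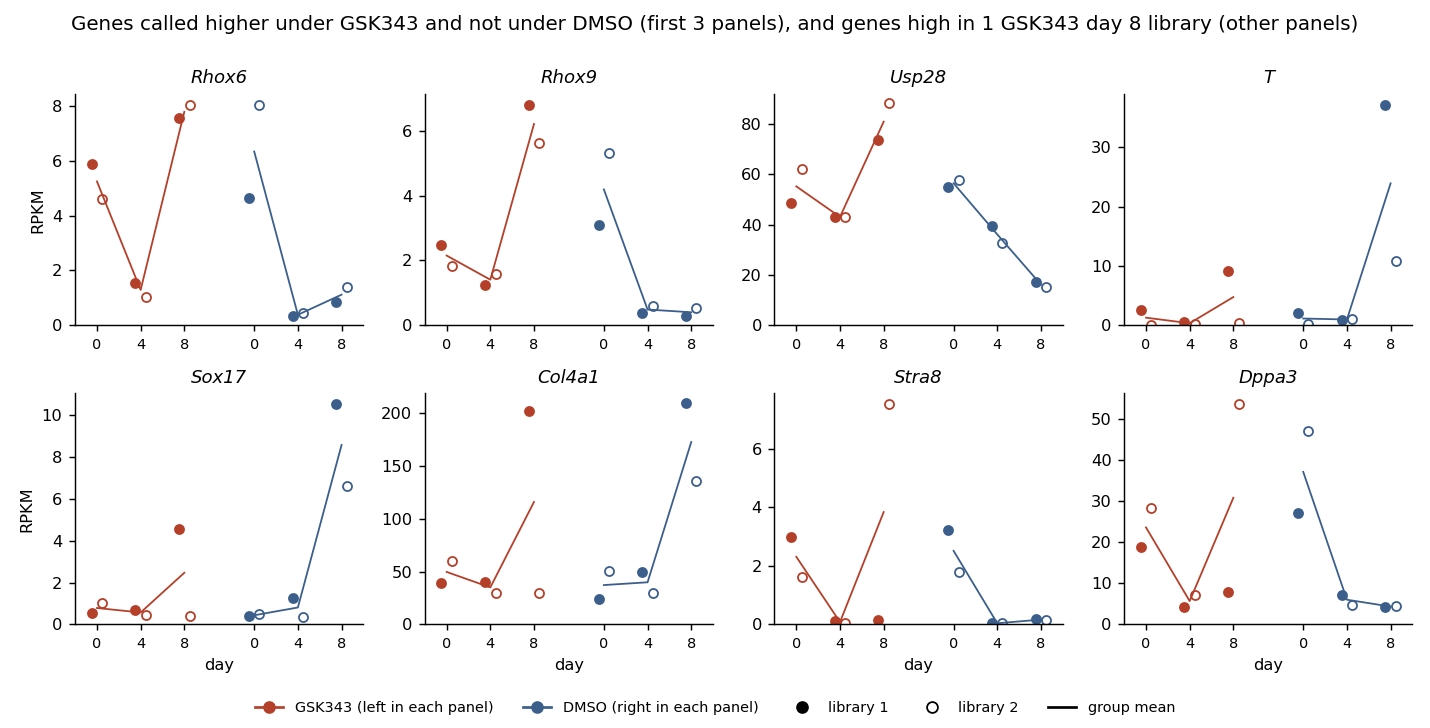
RPKM by day (0 is ES cells) of 3 genes called higher under GSK343 and not under DMSO (Rhox6, Rhox9, Usp28), and of 5 genes that differ between the 2 GSK343 day 8 libraries, with GSK343 on the left and DMSO on the right of each panel. T, Sox17 and Col4a1 are high in library 1 of GSK343 day 8 (filled point), and Stra8 and Dppa3 in library 2 (open point).

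The 8 genes that fell under GSK343 were few and of mixed function, and each also fell under DMSO. Rasl11a, a small GTPase-like gene, had 3.39 and 1.77 RPKM at day 8 and 8.08 and 8.07 at day 4 under GSK343, a change of -1.38 ± 0.25 (limma adjusted p = 0.0436). Cbr3, a carbonyl reductase, measured 30.8 and 18.7 RPKM at day 8 and 48.1 and 60.0 at day 4 under GSK343, against 1.41 and 1.56 at day 8 and 44.9 and 46.7 at day 4 under DMSO. From like levels at day 4 it thus remained well above DMSO at day 8, and the steps differed by 3.11 ± 0.29 (adjusted p = 0.000108). Ppp1r14b, an inhibitor of protein phosphatase, had 48.2 and 43.7 RPKM at day 8 and 91.9 and 108 at day 4 under GSK343, against 41.9 and 45.9 at day 8 and 105 and 112 at day 4 under DMSO. Its 2 steps nearly coincided, with a difference of 0.18 ± 0.22 (adjusted p = 0.649). The remaining falls were Cdk2ap1, a binding partner of a cell cycle kinase, Pnp, an enzyme of purine salvage with a close copy in the mouse genome, Tlx3, a homeobox gene, Cth, an enzyme of cysteine synthesis, and Hs3st5, a heparan sulfate sulfotransferase, with changes from -1.04 for Cdk2ap1 to -0.68 for Hs3st5. With a pseudocount of 0.1 RPKM the changes of Tlx3 and Hs3st5 were -1.73 and -1.67, and neither passed. Neither passed under median-of-ratios scaling. With voom on recovered reads Tlx3, Hs3st5, Rasl11a, Cdk2ap1 and Cth did not pass.

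No pluripotency gene of the 2 lists passed the threshold in the GSK343 step, in either direction. The 28 tested core and naive genes had a median change of 0.04 under GSK343, against -1.97 under DMSO. Under DMSO 22 of them fell and 2 rose, against 18.1% and 23.3% of all genes. Relative to the day 4 mean, their median was -0.18 in library 1 of GSK343 day 8 and 0.27 in library 2, so the libraries differed in sign. Both GSK343 day 8 libraries were below both day 4 libraries for 9 of the 28 and above for 4, against 14.4% and 29% of all genes. The 18 tested formative and primed genes had a median of -0.52 under GSK343, against -2.85 under DMSO, where 16 fell. For 10 of these 18 both GSK343 day 8 libraries were below both day 4 libraries, and for 0 they were above. Pou5f1, the core pluripotency transcription factor, measured 421 and 465 RPKM at day 8 and 534 and 657 at day 4 under GSK343, against 60.9 and 54.5 at day 8 and 524 and 646 at day 4 under DMSO. Sox2, its partner, measured 146 and 194 RPKM at day 8 and 182 and 184 at day 4 under GSK343, against 16.7 and 19.3 at day 8 and 127 and 96.7 at day 4 under DMSO. Nanog had 40.8 and 75.2 RPKM at day 8 and 29.0 and 30.6 at day 4 under GSK343, against 9.56 and 7.88 at day 8 and 27.5 and 35.7 at day 4 under DMSO. At day 4 the 2 treatments were thus alike for Pou5f1 and Nanog, and at day 8 they were separate in all 3 genes. The steps differed by 2.89 for Pou5f1, 2.44 for Sox2 and 2.61 for Nanog (limma adjusted p = 5.37e-05, 0.000183 and 0.0014).

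Dnmt3l, a cofactor of the de novo DNA methyltransferases, was already apart at day 4. It measured 13.8 and 13.3 RPKM in ES cells, 68.7 and 72.0 at day 4 and 61.4 and 80.2 at day 8 under GSK343, against 13.4 and 10.5 at day 4 and 1.48 and 1.15 at day 8 under DMSO. Its day 8 libraries lay on either side of its day 4 libraries under GSK343, and the steps differed by 2.48 (adjusted p = 0.000137). Dnmt3b, one of those methyltransferases, had unlike GSK343 day 8 libraries, with 349 and 88.7 RPKM at day 8 and 395 and 615 at day 4. Its change of -1.48 ± 0.55 did not pass (limma adjusted p = 0.193), and over the 18 formative and primed genes the median was -0.20 in library 1 and -0.92 in library 2.

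**Figure D4:**
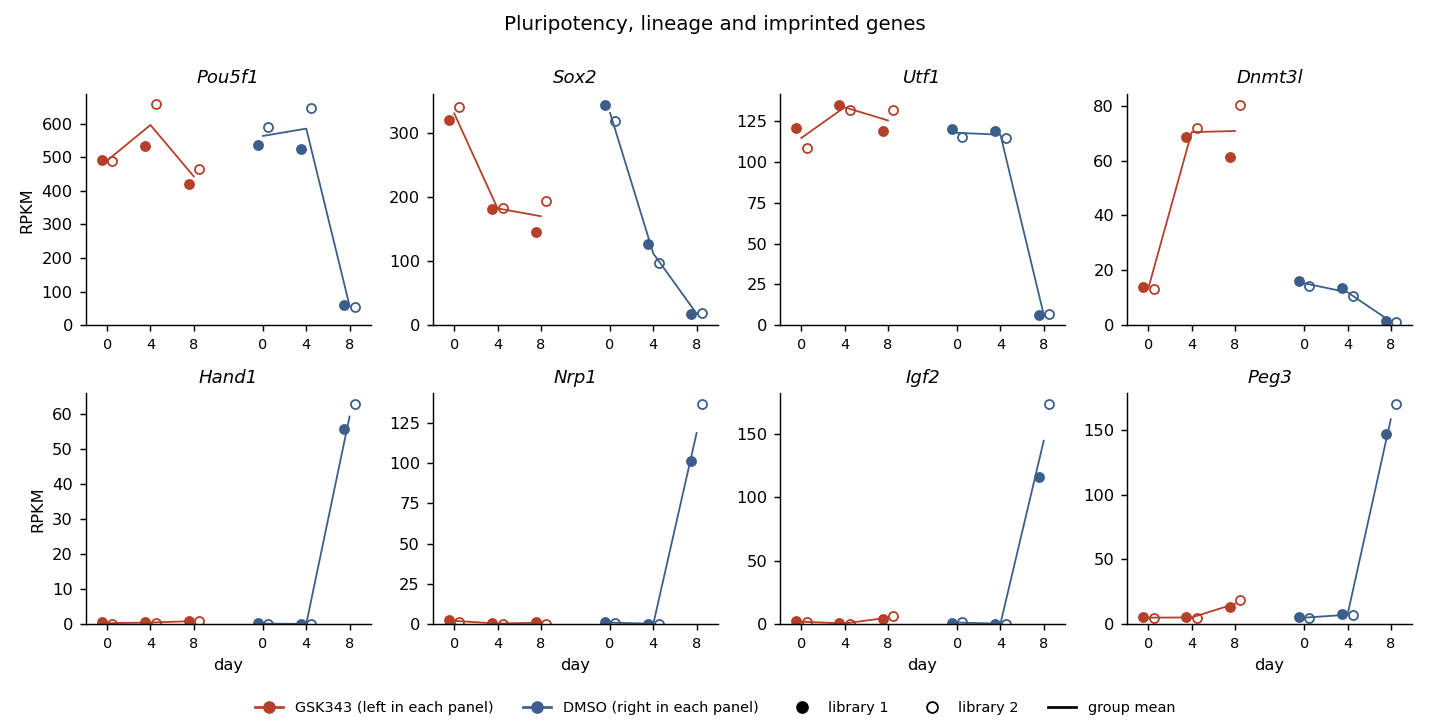
RPKM by day (0 is ES cells) of pluripotency genes (Pou5f1, Sox2, Utf1), of Dnmt3l, of lineage genes (Hand1, Nrp1) and of imprinted genes (Igf2, Peg3), with GSK343 on the left and DMSO on the right of each panel and 1 point per library. Under GSK343, Pou5f1, Utf1 and Dnmt3l stay high at day 8, and the rise of Peg3, to 13.2 and 18.4, is small beside that of DMSO, to 147 and 169.7.

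Of the lineage lists that rose in DMSO embryoid bodies, the single genes named above were the only members called in the GSK343 step. Of 14 cardiac transcription factors tested, 0 rose under GSK343 with a median of 0.05, against 14 under DMSO with a median of 2.79, and the steps differed for 12. Over all genes, 0.649% rose under GSK343 and 23.3% under DMSO, and the steps differed for 12.2%. Hand1, needed for heart and extraembryonic mesoderm, had 0.958 and 0.852 RPKM at day 8 and 0.667 and 0.364 at day 4 under GSK343, against 55.7 and 62.6 at day 8 and 0.179 and 0.0733 at day 4 under DMSO. Nrp1, a coreceptor for VEGF and semaphorins, had 1.67 and 0.319 RPKM at day 8 and 0.603 and 0.323 at day 4 under GSK343, against 101 and 136 at day 8 and 0.411 and 0.282 at day 4 under DMSO. Both genes stayed below 2 RPKM in every GSK343 library of these days. Hox genes had a median of -0.02 over 15 tested and BMP and Id genes 0.02 over 18, against 1.46 and 2.79 under DMSO. The Hox list summed to only 1.68 and 2.4995 RPKM at day 8 and 2.38 and 1.63 at day 4 under GSK343. At DMSO day 8 it summed to 39.5 and 37.9. On log2(RPKM + 1) so low a level holds the median near 0, so it cannot show whether Hox genes changed under GSK343. Among the lineage lists the sarcomere list had the highest median under GSK343, 0.55, with 0 members called. Of its members, 17 of 23 were not overlapping and higher at day 8 under GSK343 (29% of all genes). Relative to the day 4 mean, its median was 0.21 in library 1 of GSK343 day 8 and 0.79 in library 2. The median change of the list was 0.98 with a pseudocount of 0.1 RPKM and 1.42 with voom on recovered reads. Its most abundant member, Tpm1, had 77.1 and 173 RPKM at day 8 and 39.7 and 43.0 at day 4 (limma adjusted p = 0.0734). The summed RPKM of 8 markers of feeder fibroblasts was 4.27 and 13.9 at day 8 and 4.01 and 4.83 at day 4 under GSK343. Under DMSO it was 50.1 and 153 at day 8 and 7.03 and 7.64 at day 4. Col1a2 made up 9.39 of the 13.9, against 0.766 in library 1, and so most of the gap between the GSK343 day 8 libraries. Col1a1, Col3a1, Dcn, Postn and Lox were also higher in library 2 than in library 1, while Thy1 (1.06 against 2.10) and Lum were lower. Lum was listed at 0 in library 2 of day 8 and library 2 of day 4 under GSK343. The part of these markers in the results was not tested.

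**Figure D5:**
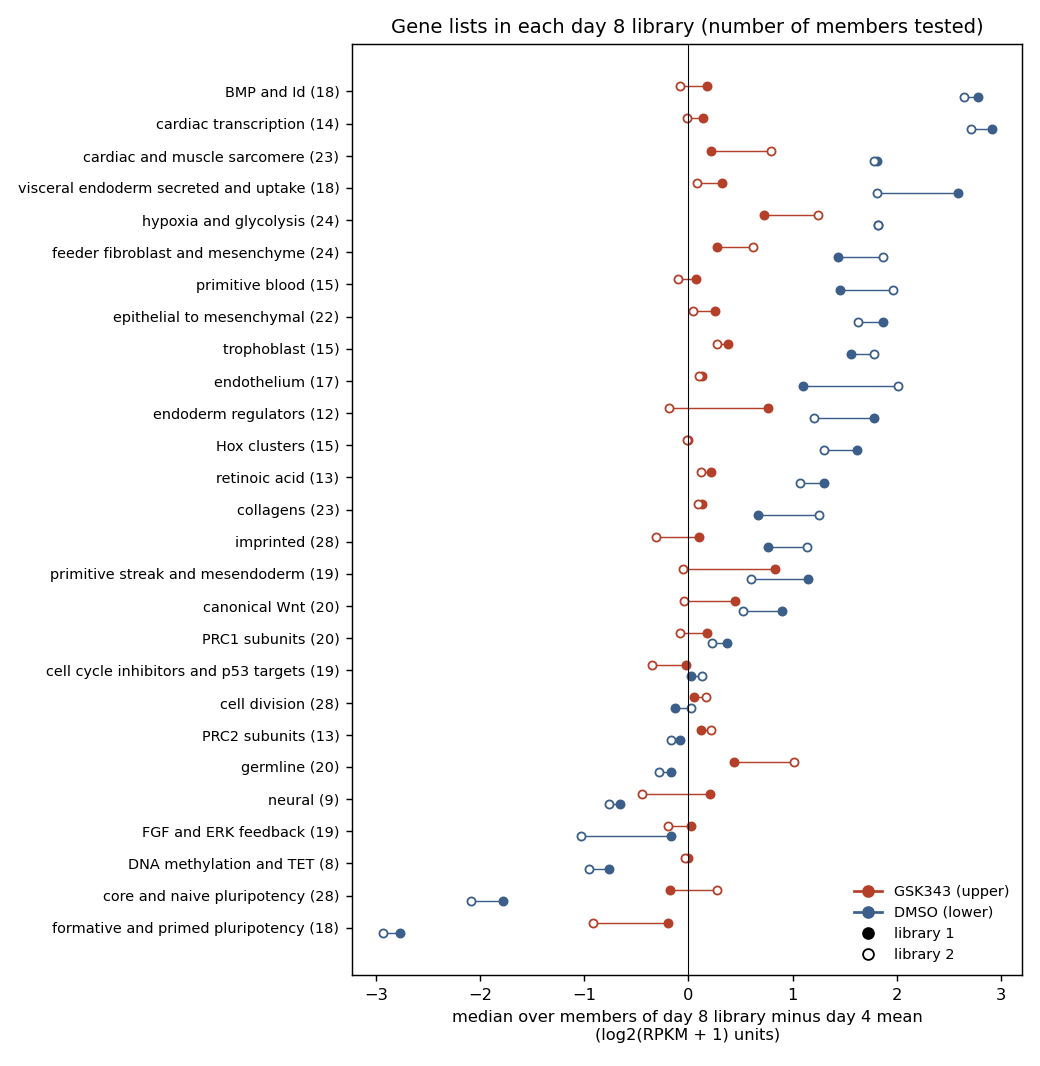
Median over the tested members of each of 27 gene lists of the difference between a day 8 library and the mean of the day 4 libraries of the same treatment, in log2(RPKM + 1), with GSK343 above DMSO in each row, filled points for library 1 and open points for library 2. Hypoxia and glycolysis (0.73 and 1.24 under GSK343) and germline (0.44 and 1.02) are the lists with both GSK343 libraries farthest above zero, and lists with GSK343 libraries on either side of zero include those of the streak, endoderm and neural genes.

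The RNA of the drug's target and of its complex passed no test in the GSK343 step. Ezh2 measured 51.0 and 46.7 RPKM at day 8 and 42.4 and 31.9 at day 4 under GSK343, against 46.7 and 37.4 at day 8 and 46.3 and 35.3 at day 4 under DMSO, with a GSK343 step of 0.40 ± 0.23 (limma adjusted p = 0.382). Eed, Suz12 and Ezh1, the other core subunits and the second catalytic one, had steps of -0.22, 0.36 and 0.67, and none of the 13 tested PRC2 subunits passed. GSK343 acts on the enzyme and not on its RNA, so these values do not check the inhibition. Cdkn2a, a cell cycle inhibitor locus known as a PRC2 target, had 15.4 and 14.5 RPKM at day 8 and 13.5 and 10.8 at day 4 under GSK343, against 3.54 and 2.91 at day 8 and 4.14 and 2.37 at day 4 under DMSO. Both GSK343 libraries lay above both DMSO libraries on each day, and its step did not pass (limma adjusted p = 0.616). The 4040 tested genes that the authors' deposited table calls PRC2 targets included 45 rises and 4 falls (1.11% higher), and the 9182 it calls not targets included 36 rises and 4 falls (0.392% higher). Under DMSO the same 2 groups had 31.7% and 19% of genes higher. The count of 45 was 406 without library 1 of day 8, 24 without library 2, 4 and 1 without library 1 and library 2 of day 4, and 0 with the 4 libraries alone.

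The EZH2 mutant gave a second view of the step in libraries that the GSK343 comparison did not use. Over 14180 genes tested in its own table, 849 were higher (5.99%) and 617 lower (4.35%) at day 8, together 10.3%. With the replicate number as a block these were 1465 and 1762. Of the 91 GSK343 rises, 62 were also called higher in the mutant, which is 68.1% of the GSK343 rises and 7.30% of the mutant rises, and 90 had a change above 0 there. Egln3 measured 34.8, 38.1 and 34.4 RPKM at day 8 and 6.62, 4.45 and 5.12 at day 4 in the mutant, a change of 2.53 ± 0.56 (limma adjusted p = 0.0112), beside 2.54 under GSK343. Anxa2 changed by 4.96 and P4ha1 by 3.37 in the mutant (limma adjusted p = 2.54e-05 and 6.91e-06), with no overlap of libraries in either gene. Of the hypoxia and glycolysis list, 16 of 25 tested rose in the mutant, with a median of 1.49. Rhox6 also rose there, by 2.18 (adjusted p = 0.00887), with 9.72, 2.88 and 2.62 RPKM at day 8 and 0.267, 0.157 and 0.0934 at day 4, while Rhox9 (1.03, adjusted p = 0.109) and Usp28 (0.14, adjusted p = 0.902) did not pass. The tables were normalised separately, so levels are not compared between them, and the difference between the mutant and GSK343 steps was not tested.

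The authors' deposited table of this comparison holds 1026 genes higher and 186 lower at day 8 under GSK343 at an adjusted p under 0.05. Of the genes called here, 83 of 91 rises and 7 of 8 falls are among them.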

How the data were processed

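RNA-seq libraries of GSK343 and DMSO ES cells and embryoid bodies were read from 1 deposited table of 12 libraries, and those of the EZH2 mutant from another of 18. The values are RPKM that the authors deposited, per the file headers. STAR 2.5.3, featureCounts 1.6.1, edgeR, HOMER 4.10.3 and mm10 are named in processing per the submitters' processing notes, which assign no roles, and whether counting used strand is not stated there. RPKM times gene length gave whole reads for 100% of values within 0.02 reads, from which depth was taken. The authors' deposited adjusted p-values were counted, and their log2 fold changes gave the direction. The authors' PRC2_target call, deposited with another experiment, was used as given, without knowledge of its rule. Row Rn45s, a ribosomal RNA precursor, held 6.38% to 11.5% of reads.

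Groups were assigned from the labels. Values were analysed as log2(RPKM + 1), genes with at least 0.5 RPKM in 2 or more libraries were kept (14016 of 14607; 3 or more in the mutant table, 14180 of 14772), and all groups of a table entered 1 fit in limma 3.58.1 (R 4.3.3; lmFit, contrasts.fit, eBayes with trend). P-values were adjusted with Benjamini-Hochberg at 0.05. The interaction contrast tested the difference between the steps. The procedure was tested on simulated data. In the mutant, same-numbered day 8 and day 4 libraries deviated together (r = 0.460, 0.548 and 0.641), so its blocked counts are given. The same held for GSK343 day 8 and day 4 (r = 0.38), and the blocked counts of that step are given as an alternative.

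The members and the 27 gene lists were chosen with earlier results of these data known. Named genes are the 12 largest rises and falls of the step with at least 1 RPKM and no overlap, up to 4 called members of each list, or its 2 most abundant where none was called, 12 genes fixed by name, and the extremes of the differences and shared changes. Ero1l, Egln1, Slc2a3, Pgk1, Vegfa, Gapdh, Pkm, Ldha, Stra8, Dppa3, Mir18b, Rbm44, Terb2, Wbp2nl, Ddx60, Oas1c, Pla2g2c and D730005E14Rik were named after their values were seen. Not all genes that the rule names are described, and 1 is not reported here. Promoter sequences are from RefSeq. Alternatives were the pseudocount, filters, scaling, voom on recovered reads, the libraries fitted, a replicate block and leaving out each library.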

Additional observations from a re-analysis of the deposited data

Results flagged for a closer look

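The change from day 4 to day 8 differed between GSK343 and DMSO, by the interaction contrast in limma, for 796 genes that lay above the DMSO step and 913 below it. All values here are the GSK343 step minus the DMSO step on the log2(RPKM + 1) scale, each with an adjusted p under 0.05.

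Among pluripotency genes and genes that fell with them under DMSO, the differences were 4.64 for Platr10, 4.07 for Lefty1, 4.02 for L1td1, 3.91 for Pdzd4, 3.89 for Utf1, 3.73 for Foxd3, 3.15 for Dnmt3b, 3.05 for Fgf4, 2.89 for Pou5f1, 2.87 for Tcf15, 2.61 for Nanog, 2.48 for Dnmt3l and 2.44 for Sox2. Outside these, the GSK343 step lay above by 3.11 for Cbr3, 2.56 for Myb, 2.54 for Tubb3, 2.00 for Usp28, 1.67 for Rhox9, 1.35 for Rhox6 and 0.62 for Hs3st5.

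Among imprinted genes the differences were -4.73 for Igf2, -3.90 for H19, -2.84 for Peg3 and -1.61 for Sgce. Among genes of glycolysis, low oxygen and membranes they were -1.91 for Anxa2, -1.79 for P4ha1, -1.25 for Pfkfb3 and -1.04 for Ndrg1. Among lineage, signalling and chromatin genes they were -8.48 for Hbb-bh1, -6.09 for Nrp1, -5.51 for Hand2, -5.40 for Hand1, -5.28 for Hba-x, -5.23 for Tnni1, -2.38 for Nog, -2.04 for Alas2, -1.99 for Tbx3, -1.49 for Flt1, -1.43 for Notum, -1.42 for Pcgf5, -1.28 for Col18a1 and -1.05 for Rbbp7. Hbb-bh1, an embryonic beta-like globin, had 156 and 525 RPKM at DMSO day 8 and was listed at 0 in both DMSO day 4 libraries, so the size of its difference depends on the pseudocount.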

How the results depend on the processing

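With 2 libraries in a group, the counts of calls moved with single libraries and with how the spread was shared. All 99 genes called in the GSK343 step kept their sign under every alternative that tested them. The filter at 2 RPKM tested 89 of them, all with the same sign. For all 99 the GSK343 day 8 and day 4 libraries did not overlap, so fits on fewer libraries could not change the sign. The step called 91 higher and 8 lower. It called 39 higher under median-of-ratios scaling, 59 and 4 with voom on recovered reads, 0 and 0 with the 4 libraries alone (limma, 1418 at an unadjusted p under 0.05, smallest adjusted p 0.124), 623 and 117 with a replicate block, 55 and 3 without library 2 of GSK343 ES cells, and 1 to 1181 higher and 0 to 429 lower with 1 day 4 or day 8 library left out. Of the 99 genes, 74 held their call in 1 of these 4 left-out fits, 19 in 2, 5 in 3 and 1 in 4. Hypoxia and glycolysis members called were 9, against 0 alone, 16 with the block and 1 to 16 with a library left out. PRC2 targets called higher were 45, against 22 under scaling, 0 alone, 223 with the block, 27 without library 2 of GSK343 ES cells and 1 to 406 with a library left out. The DMSO step held 2159 to 2505 higher and 1480 to 1726 lower with 1 library left out. The difference between the steps gave 1464 above and 1431 below with the block, and 343 to 954 above and 504 to 960 below with 1 library left out. The mutant step gave 1465 and 1762 with the block, and 362 to 769 higher and 148 to 728 lower with 1 library left out. Same-numbered libraries deviated together in all 15 pairs of groups (r from 0.18 to 0.67, 0.38 for GSK343 day 8 and day 4), a hint from the data, as the labels give the numbers no meaning and each group has 2 of them. Mylpf, a muscle myosin gene not called, had a change of -0.05, which was 0.76 without library 1 of GSK343 day 8 and -0.86 without library 2, a reversal. For single named genes, 914 values under alternatives were on the same side of the threshold, 133 no longer passed and 17 newly passed. Of the list medians, 294 stayed within the spread and 30 moved beyond it. The cause of these movements was not tested, beyond the fewer libraries that the left-out fits hold by construction. Depth limited genes below about 0.5 RPKM. Genes that reached this level in fewer than 2 of the 12 libraries were not tested. A gene below it in the GSK343 libraries was tested where 2 other libraries reached it.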

Other observations

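The following genes were chosen after their values were seen, from the 91 that rose in the GSK343 step, and no test of them as a group was run. Enzymes and regulators of glycogen were among them. Gbe1, the glycogen branching enzyme, had 14.2 and 12.9 RPKM at day 8 and 7.57 and 6.4 at day 4 under GSK343. Ppp1r3c, which brings a phosphatase to glycogen, had 1.63 and 3.52 RPKM at day 8 and 0.387 and 0.417 at day 4 under GSK343, against 15.1 and 15.6 at day 8 and 0.508 and 0.520 at day 4 under DMSO. Ppp1r3b, of the same family, had 4.03 and 4.69 RPKM at day 8 and 1.79 and 1.28 at day 4 under GSK343. As in all 91 rises, the GSK343 libraries of day 8 and day 4 did not overlap in any of the 3. The GSK343 step lay below the DMSO step in each (differences of -1.09, -2.13 and -1.17, limma adjusted p = 0.00716, 0.00168 and 0.0126).

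Enzymes that modify collagen rose beside P4ha1. P4ha2, a second catalytic subunit of collagen prolyl hydroxylase, had 36.7 and 25.6 RPKM at day 8 and 9.75 and 12.1 at day 4 under GSK343, against 105 and 94.8 at day 8 and 12.1 and 13.0 at day 4 under DMSO. Loxl2, a lysyl oxidase that crosslinks collagen, had 11.5 and 7.26 RPKM at day 8 and 2.13 and 1.30 at day 4 under GSK343. The collagen genes themselves had 0 of 23 members called under GSK343 and a median change of 0.16, against 14 higher (23.3% of all genes) and 1.05 under DMSO. Genes known to respond to interferon were also among the 91. Cxcl11, a chemokine, had 0.992 and 1.51 RPKM at day 8 and 0.0359 and 0 at day 4 under GSK343, and Usp18, which removes the ubiquitin-like protein ISG15, had 1.36 and 1.37 at day 8 and 0.0975 and 0.180 at day 4. Ddx60, an antiviral helicase, had 4.19 and 5.79 RPKM at day 8 and 1.15 and 1.28 at day 4 under GSK343, against 1.46 and 0.571 at day 8 and 0.935 and 0.758 at day 4 under DMSO. Its step exceeded that of DMSO (difference 1.33, adjusted p = 0.0263), which Cxcl11 did not (0.17, adjusted p = 0.699), and Usp18 lay below (-1.49, adjusted p = 0.00698).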
